A study of Mus musculus with 20 samples.

Results

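The genes described here are the nuclear genes whose symbols begin with Nduf, Cox4 to Cox8, Uqcr or Atp5, or are Sdha, Sdhb, Sdhc or Sdhd, taken by name from the expression table and by no measured value. They number 88 of the 16810 genes in the table. Of these, 79 are named as subunits of the oxidative phosphorylation complexes: 35 of complex I, 4 of complex II, 8 of complex III, 17 of complex IV and 15 of complex V. The other 9 share the names alone. They are 7 assembly factors of complex I (Ndufaf2 and its relatives), which help to build the complex and do not stay in it, and Atp5s and Atp5sl.

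Complexes I to IV form the respiratory chain of the inner mitochondrial membrane, which passes electrons from NADH and succinate to oxygen while complexes I, III and IV pump protons across the membrane. Complex V, the ATP synthase, lets the protons flow back and makes ATP. Most subunits are encoded in the nucleus and imported, and a few membrane subunits of complexes I, III, IV and V are encoded in mitochondrial DNA. Resting microglia use both this pathway and glycolysis, and microglia activated in culture are known to shift between them.

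RNA-Seq was performed on microglia sorted as eGFP-high cells from the thoracic spinal cord of adult male CX3CR1+/eGFP mice on a C57BL/6 background, in which eGFP replaces 1 copy of the fractalkine receptor gene. This genotype was shared by every group, controls included. There were 3 samples of non-injured mice (NI) and 17 of mice with a lateral hemisection (HS) or a full transection (FT) of the cord, taken 72 h, 1 week or 2 weeks after surgery with 3 samples in each group except HS at 1 week, which had 2. The reporter also labels monocytes, and tissue of several mice was pooled for sorting, so that p-values measure the spread between these samples. Values are the deposited normalised read counts, written here as CPM (counts per 1e+06 reads). The columns sum to 777426 to 1202190 and not to 1e+06. A value is therefore not an exact count per 1e+06 reads on the genes of the table, and the unequal totals enter every fold change. Results with the columns at the same total are given below. The depth recovered from the values was 3.87 to 34.1 M reads per sample, so that a single read was worth 0.0330 to 0.292 CPM. A gene is called differentially expressed (DE) where limma gave a Benjamini-Hochberg adjusted p under 0.05 over the 16810 genes together with a 2-fold or larger change. In bulk samples, a change in the share of a cell type and a change in RNA per cell cannot be told apart. The mitochondrial subunits themselves were not analysed here.

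Promoter sequences are shown as a description of these genes, and whether a motif goes with the rise at 72 h was not tested. RefSeq promoters (300 bases around the start site, build GRCm38.p6) were matched for 73 of the 88 genes. Both strands were searched for 3 motifs tied in textbooks to respiratory genes, the palindrome of NRF1, and the motifs of the ETS family that includes GABP (CCGGAAG) and of YY1 (AAGATGGC). Stretches upstream of the start site that overlap no annotated exon are given 5′ to 3′ on the strand of the gene, with the motif matches in capitals, for a subunit each of complexes IV, III and V whose windows hold such matches. The stretch of Cox6a1 lies at chr5:115348982-115349129 (minus strand) and holds 2 NRF1 matches, that of Uqcr11 at chr10:80406831-80407071 (minus strand) holds an ETS match, and that of Atp5h at chr11:115419963-115420127 (minus strand) holds an NRF1 match.
Cox6a1: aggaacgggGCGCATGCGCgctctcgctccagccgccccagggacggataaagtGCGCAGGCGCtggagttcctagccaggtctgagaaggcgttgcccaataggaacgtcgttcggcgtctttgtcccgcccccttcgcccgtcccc
Uqcr11: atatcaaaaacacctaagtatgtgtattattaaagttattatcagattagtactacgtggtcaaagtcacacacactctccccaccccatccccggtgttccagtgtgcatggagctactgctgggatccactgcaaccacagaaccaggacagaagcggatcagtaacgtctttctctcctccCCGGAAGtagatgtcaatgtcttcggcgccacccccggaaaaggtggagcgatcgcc
Atp5h: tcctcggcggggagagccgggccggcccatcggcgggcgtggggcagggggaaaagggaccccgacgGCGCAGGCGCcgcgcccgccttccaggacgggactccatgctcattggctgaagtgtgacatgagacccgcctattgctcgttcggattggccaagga

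The NRF1 letters were found in the promoters of 18 of 73 genes (24.7%), against 9.80% of the 12385 genes of the table with a promoter and 4.60% of all 32851 promoter windows. The ETS letters were found in 17 genes (23.3%), against 16.9% of the genes of the table and 8.86% of windows. The YY1 letters were found in 11 genes (15.1%), against 4.56% of the genes of the table and 2.75% of windows. A further motif, the CREB site TGACGTCA, was found in 4 (5.48% against 3.12%), and the CLEAR E-box, tied to lysosomal genes, in 0 (against 0.662%). A match describes the letters in the window and not binding. The 18 genes with NRF1 letters came from each of the 5 complexes and from the assembly factors, and included Sdha, Uqcrc1, Cox6a1, Atp5g2 and Ndufs6.

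The respiratory genes as a group were highest at 72 h after either injury. The summed level of the 88 genes was 7371, 6282 and 6630 CPM in the 3 NI samples. At 72 h it was 16979, 17299 and 13562 CPM after HS and 13467, 16825 and 13749 CPM after FT. Every sample at 72 h lay above every other sample of the series. At 1 week the sum was 7829 and 8327 CPM after HS and 9966, 8911 and 11901 CPM after FT, and at 2 weeks it was 8685, 8920 and 9984 CPM after HS and 10045, 12051 and 9913 CPM after FT. All of these exceeded the 3 NI values, the lowest of them (7829 CPM) by the least. As a share of each sample's reads on the 16810 genes of the table, which is free of the scaling between columns but leaves out reads on genes not in the table, the 88 genes took 0.808 to 0.888% in NI, 1.27 to 1.51% at 72 h after HS and 1.24 to 1.49% at 72 h after FT. Later the share was 0.832 to 0.925% at 1 week and 0.899 to 0.956% at 2 weeks after HS, and 0.845 to 1.13% and 0.928 to 1.12% after FT, with overlap with NI at 1 week in both injuries.

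**Figure D1:**
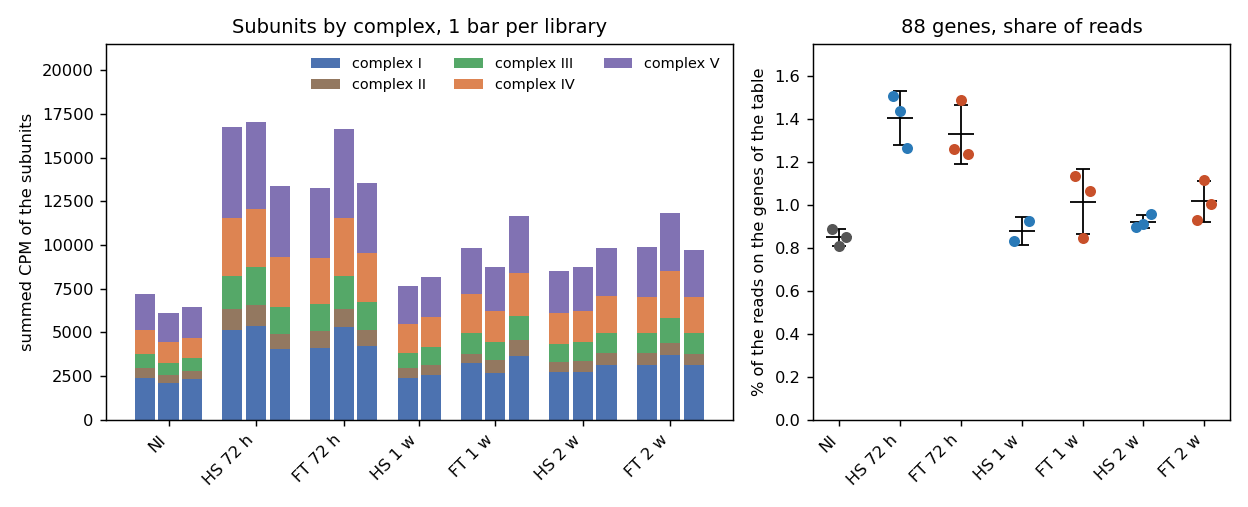
Left, summed level (CPM) of the 79 subunits in each of the 20 samples, stacked by complex I to V. Right, share of each sample's reads on the genes of the table (percent) taken by all 88 genes, with points for samples and the group mean and SD; the 6 samples at 72 h lie at 1.24 to 1.51%, above all the others.

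At 72 h after HS, 55 of the 88 genes were DE and higher than in NI (62.5%, where 9.08% of all genes tested were DE and higher) and none was DE and lower (4.31% of all genes). The median log2 fold change of the 88 genes was 1.18, while that of all genes was -0.11, and 86 of the 88 were on the positive side. At 72 h after FT, 44 of the 88 were DE and higher (50%, with 8.14% of all genes) and none was lower (4.09%), with a median of 1.05 against -0.09 for all genes. At an unadjusted p under 0.05, too, 0 of the 88 were lower after either injury (18.7% and 17.3% of all genes). By the adjusted p alone, 68 genes rose after HS (16.4% of all genes) and 66 after FT (14.8%). The 3 injured samples all lay above the 3 NI samples for 72 genes after HS (24% of all genes) and for 69 after FT (22.2%). Both comparisons share the NI samples.

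The size of this rise depended on how the columns were scaled. The deposited columns sum to 777426 to 830481 CPM in NI and to 878070 to 1202190 CPM after injury. When each column was scaled to the same total instead, the median over all genes moved to -0.52 (log2) at 72 h after HS and to -0.48 after FT. Under that scaling 8 of the 88 genes rose at least 2-fold after HS (3.68% of all genes) and 2 after FT (3.69%), so that the share of the group past 2-fold after FT was no longer above that of all genes. By the adjusted p alone, 54 still rose after HS (8.45% of all genes) and 49 after FT (7.79%). The gap between the median of the 88 genes and that of all genes was 1.29 as deposited and 1.20 at the same total after HS, and 1.14 and 1.07 after FT. With quantile scaling 58 genes passed the adjusted p as higher after HS and 58 after FT (13% and 12% of all genes). Of these, 21 and 16 rose 2-fold, counts for which no share of all genes is given, and the gaps were 0.89 and 0.82. Of the genes named in the next paragraphs, Ndufa1 (1.32 and 1.41) and Atp5g2 (1.19 and 1.13) were DE after both injuries at the same total and Uqcr11 (1.03) after HS, while several others named there kept the adjusted p without the 2-fold change or, where said, lost both.

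Complex V had the highest median at 72 h, and the assembly factors the lowest but for Atp5s and Atp5sl after HS. Of the 15 ATP synthase subunits, 13 were DE and higher after HS and 13 after FT (median log2 fold change 1.40 and 1.28). In complex III, 7 of 8 rose after HS and 5 after FT (1.31 and 1.17). In complex IV, 11 of 17 rose after HS and 10 after FT (1.31 and 1.11), and in complex II 3 of 4 rose after either injury (1.26 and 1.09). Complex I, the largest, had 21 of 35 DE and higher after HS and 12 after FT (1.07 and 0.98), and by the adjusted p alone 31 and 29. Of the 7 assembly factors of complex I, none was DE by limma after HS (3 were higher at an unadjusted p under 0.05) and 1 after FT (medians 0.32 and 0.07), and neither Atp5s nor Atp5sl was DE (0.21 and 0.16). All 79 subunits had a positive log2 fold change after both injuries. Differences between complexes were not tested.

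In complex I, the NADH dehydrogenase, the accessory subunit Ndufa1 changed most at 72 h and the core subunit Ndufv1 least. Ndufa1, a membrane-arm subunit needed for assembly and encoded on the X chromosome (chrX:37187588-37191163, GRCm38, minus strand), had 57.4, 52.9 and 62.5 CPM in NI. At 72 h it had 184, 253 and 186 CPM after HS and 164, 316 and 185 CPM after FT. The groups did not overlap. Its log2 fold change was 1.83 ± 0.21 (SE; adjusted p = 1.56e-06, limma) after HS and 1.88 ± 0.21 (adjusted p = 1.18e-06) after FT, the largest of complex I in both. Ndufs1, a core subunit that carries iron-sulfur clusters, had 53.7, 47.2 and 46.1 CPM in NI, 97.0, 76.1 and 63.3 CPM at 72 h after HS and 79.9, 87.3 and 80.7 CPM after FT. It rose without reaching 2-fold (0.66, adjusted p = 0.0430, and 0.75, adjusted p = 0.0251, limma), and at the same total neither value passed (0.16, adjusted p = 0.523, and 0.28, adjusted p = 0.248). Ndufv1, the subunit that binds NADH and flavin, had the smallest change of complex I after both injuries, 0.47 (adjusted p = 0.129) and 0.32 (adjusted p = 0.325), and at the same total its values were -0.04 and -0.15. Ndufa3, a small accessory subunit, rose by 1.21 after HS (adjusted p = 0.000197) and 0.99 after FT (adjusted p = 0.00146), the latter just under 2-fold and lost at the same total (0.52, adjusted p = 0.0604).

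Of the assembly factors, Ndufaf2 had 14.8, 10.6 and 11.3 CPM in NI and the largest change, 0.99 after HS (adjusted p = 0.00300) and 1.00 after FT (adjusted p = 0.00317), values that lie on either side of the 2-fold limit, and the value after HS did not pass at the same total (0.50, adjusted p = 0.0584). Ndufaf6 had the smallest, -0.50 (adjusted p = 0.216) and -0.59 (adjusted p = 0.153), from 2.74 to 3.35 CPM in NI. At the same total, Ndufaf4 (-0.73 and -0.65), Ndufaf6 (-0.93 and -0.99) and Atp5sl (-0.45 and -0.55) passed the adjusted p as lower at 72 h after HS and FT (3.41% of the group, where 37.3% and 32.8% of all genes did).

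Complex II is succinate dehydrogenase, the enzyme shared by the respiratory chain and the citric acid cycle. Sdhc, which helps to anchor it in the membrane, had 83.1, 65.9 and 63.5 CPM in NI, 223, 191 and 141 CPM at 72 h after HS and 152, 154 and 160.5 CPM after FT. It rose by 1.37 ± 0.18 (adjusted p = 1.23e-05, limma) and 1.14 ± 0.18 (adjusted p = 0.000112). Sdhb, the iron-sulfur subunit, rose by 1.20 (adjusted p = 0.000107) and 1.14 (adjusted p = 0.000205). Sdha, the flavin subunit that oxidises succinate, had 221, 192 and 177 CPM in NI, 409, 354 and 279 CPM after HS and 323, 339 and 327 CPM after FT, a smaller rise (0.81, adjusted p = 0.0203, and 0.75, adjusted p = 0.0326) with no overlap. At the same total Sdha passed after neither injury (0.30, adjusted p = 0.225, and 0.28, adjusted p = 0.263). At 1 week after FT, Sdha was 131 CPM in replicate 1 and 317 and 328 CPM in the others, and the sum of the 4 subunits was 469, 733 and 918 CPM, against 447 to 537 CPM in NI.

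Complex III carries electrons from ubiquinol to cytochrome c. Uqcr11, a small subunit (chr10:80402997-80406830, minus strand), had 68.2, 83.9 and 89.1 CPM in NI, 228, 271 and 202 CPM at 72 h after HS and 176, 187 and 205 CPM after FT. All injured samples lay above all NI samples, with log2 fold changes of 1.53 ± 0.20 (adjusted p = 8.31e-06, limma) and 1.24 ± 0.20 (adjusted p = 0.000110). Uqcr10, another small subunit, rose by 1.39 and 1.31 and led complex III after FT. Uqcrfs1, the Rieske iron-sulfur protein, had 17.3, 19.0 and 18.8 CPM in NI and 0.52 after HS (adjusted p = 0.0575) and 0.62 after FT (adjusted p = 0.0285), which at the same total was 0.16 (adjusted p = 0.565). Uqcrc1, a core protein outside the electron path, had 164, 147 and 70.5 CPM in NI, 357, 368 and 278 CPM after HS and 332, 49.1 and 307 CPM after FT. It was DE after HS (1.47, adjusted p = 0.0232) and not after FT (0.52, adjusted p = 0.443), where replicate 2 lay below every NI sample, and at the same total the value after HS did not pass (0.96, adjusted p = 0.0873).

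Complex IV, cytochrome c oxidase, passes the electrons to oxygen, and several of its subunits exist as pairs of isoforms. Cox4i1, its largest nuclear subunit (chr8:120668222-120674207, plus strand), had the highest level per length of the 88 genes in NI, 509.7 ± 34.8 CPM per kb of exon (SD, n = 3). It had 406, 359 and 404 CPM in NI, 971, 1193 and 883 CPM at 72 h after HS and 803, 1129.5 and 889 CPM after FT, with no overlap (1.37 ± 0.20, adjusted p = 3.76e-05, and 1.26 ± 0.20, adjusted p = 0.000108, limma). Its partner Cox4i2, known as the isoform of lung and of low oxygen, had 0.357 ± 0.0268 CPM per kb in NI (SD, n = 3) and no read in 1 of the 3 samples at 72 h after each injury, a count of 0 that allows up to 3 reads. Ndufa4, once assigned to complex I and now to complex IV, rose by 1.35 (adjusted p = 3.88e-05) and 1.21. Ndufa4l2, its relative known from hypoxia, stood at 0.532 CPM per kb in NI against 135 for Ndufa4, and its values of 0.09 and 0.40 were far from the adjusted threshold (adjusted p = 0.889 and 0.540).

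The Cox7a isoforms rose together at 72 h despite very different levels. Cox7a2, the isoform of most tissues, stood at 101 CPM per kb in NI and rose by 1.18 after HS and 1.07 after FT, and Cox7a2l, known for joining complexes III and IV, rose by 1.19 and 1.06. Cox7a1, known as the isoform of heart and skeletal muscle, stood at 2.08 CPM per kb in NI. It had 1.19, 0.901 and 1.25 CPM in NI, 3.83, 3.298 and 2.46 CPM at 72 h after HS and 2.75, 4.38 and 2.94 CPM after FT, with no overlap (1.19, adjusted p = 0.00643, and 1.24, adjusted p = 0.00520, limma). It was back at 0.464 to 1.705 CPM in the samples of 1 and 2 weeks. Cox5a, a subunit next to the core, was DE after both injuries (1.58, adjusted p = 0.0486, and 1.87, adjusted p = 0.0225), yet its lowest sample at 72 h was 11.97 CPM after HS and 15.5 CPM after FT, within the NI range of 7.58 to 16.2 CPM, and at the same total neither value passed (1.08, adjusted p = 0.135, and 1.42, adjusted p = 0.0596). Cox6b2, known from testis, had 0.92 (adjusted p = 0.0934) and 1.09 (adjusted p = 0.0535).

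Complex V rose most. Atp5g2, a gene for the membrane ring that turns as protons pass (chr15:102662864-102672352, minus strand), had 140.3, 114 and 141 CPM in NI, 438, 499.9 and 351 CPM at 72 h after HS and 316, 565 and 354 CPM after FT. The groups did not overlap, and the log2 fold changes were 1.69 ± 0.21 (adjusted p = 5.09e-06, limma) and 1.60 ± 0.21 (adjusted p = 1.15e-05), the largest of complex V. Atp5a1, the alpha subunit of the catalytic head, rose by 1.28 (adjusted p = 9.93e-05) and 1.11 (adjusted p = 0.000480). Atp5b, the beta subunit that holds the catalytic sites, had 267, 228 and 152 CPM in NI, 508, 190.2 and 429 CPM after HS and 479, 228 and 427 CPM after FT, and its values of 0.72 (adjusted p = 0.164) and 0.78 (adjusted p = 0.143) did not pass, with 1 sample of each injured group within the NI range.

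At 1 and 2 weeks few genes of the group were DE. After HS, 1 gene was DE and higher at 1 week (1.14%, near the 1.7% of all genes) and 2 at 2 weeks (2.27%, near 2.43%). After FT, 4 were DE and higher at 1 week (4.55%, with 2.86% of all genes) and 6 at 2 weeks (6.82%, with 3.53%), and none was lower at any of these times (0.482% and 0.797% of all genes after HS, 1.2% and 1.36% after FT). By the adjusted p alone the counts were 1 and 5 after HS (2.07% and 3.84% of all genes) and 19 and 26 after FT (5.11% and 6.21%). The median log2 fold change was 0.15, then 0.36, after HS and 0.45, then 0.56, after FT, with the medians of all genes between -0.03 and 0.02. At the same total these medians became -0.06, 0.04, 0.13 and 0.17, with all genes at -0.17, -0.29, -0.32 and -0.36, and a single gene, Cox6a2, stayed DE and higher in each comparison (1.14%, with 1.29%, 1.46%, 1.4% and 1.71% of all genes).

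The others that were DE at later times were Ndufa1, Cox4i1 and Atp5g2, and at 2 weeks after FT also Uqcrh, the hinge protein of complex III (1.09, adjusted p = 0.00290), and Atp5e, the epsilon subunit of the ATP synthase (1.01, adjusted p = 0.00512). Ndufa1 had 109.8, 129 and 126 CPM at 2 weeks after HS (1.07, adjusted p = 0.00266, limma), 133, 104 and 144 CPM at 1 week after FT (1.13, adjusted p = 0.00144) and 121, 151 and 136 CPM at 2 weeks after FT (1.23, adjusted p = 0.000428). Each of these samples lay above the highest NI sample of 62.5 CPM. Atp5g2 had 348, 247 and 399 CPM at 1 week and 261, 298 and 299 CPM at 2 weeks after FT (1.31, adjusted p = 0.000370, and 1.12, adjusted p = 0.00130), against 114 to 141 CPM in NI. Cox4i1 had 848, 628 and 969 CPM and 678, 922 and 769 CPM (1.04, adjusted p = 0.00207, and 1.01, adjusted p = 0.00224).

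Cox6a2 was lower at 72 h than at 1 and 2 weeks. It encodes the form of subunit 6a known from heart and skeletal muscle, and lies at chr7:128205435-128206387 (GRCm38, minus strand). It had 7.69, 4.76 and 4.41 CPM in NI. At 72 h it had 12.6, 20.7 and 12.7 CPM after HS and 13.2, 17.5 and 13.98 CPM after FT. At 1 week it had 30.5 and 36.9 CPM after HS and 34.2, 26.4 and 37.8 CPM after FT. At 2 weeks it had 37.0, 22.4 and 40.3 CPM after HS and 50.5, 56.3 and 47.9 CPM after FT. Every injured sample lay above every NI sample, and every sample of 1 and 2 weeks lay above every sample of 72 h. The log2 fold changes from NI after HS were 1.37 ± 0.25 (adjusted p = 0.000295, limma), 2.52 ± 0.28 (adjusted p = 6.39e-06) and 2.46 ± 0.25 (adjusted p = 7.81e-07) in order of time, and after FT 1.36 ± 0.25 (adjusted p = 0.000368), 2.47 ± 0.25 (adjusted p = 8.44e-07) and 3.12 ± 0.25 (adjusted p = 2.03e-08). At the same total the values were 0.90, 2.33 and 2.16 for HS, and 0.92, 2.15 and 2.75 for FT. Per length Cox6a2 rose from 8.27 ± 2.64 CPM per kb in NI to 75.9 ± 6.36 at 2 weeks after FT (SD, n = 3), while its partner Cox6a1, the isoform of most tissues, stood at 137 ± 91.9 and 252 ± 142. The last exon of Cox6a2 shares 70 of its 680 exon bases with Itgad on the opposite strand, and strand was not marked in these libraries. Itgad had 0.386 to 2.37 CPM over the 20 samples, below Cox6a2 in each of them.

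**Figure D2:**
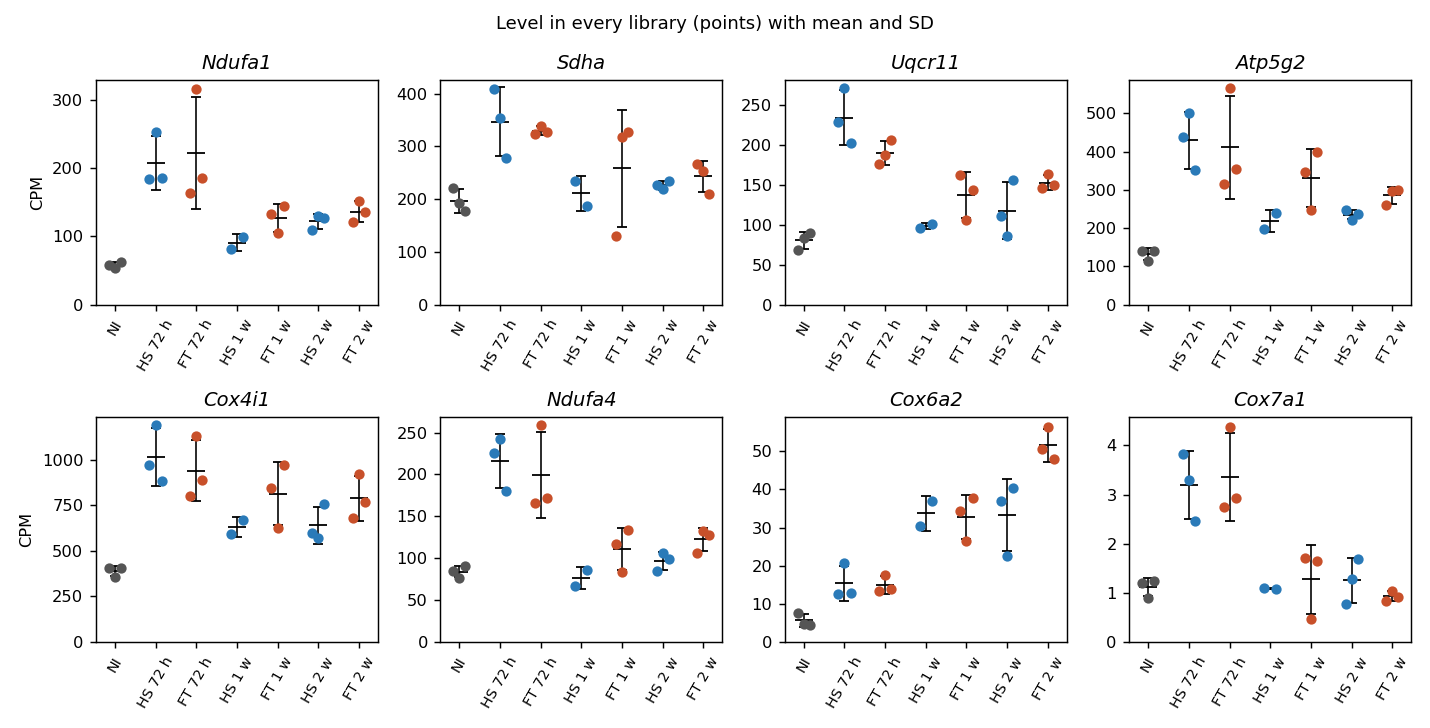
CPM in each sample (points) with the group mean and SD for Ndufa1, Sdha, Uqcr11, Atp5g2, Cox4i1, Ndufa4, Cox6a2 and Cox7a1, over the 7 groups. All but Cox6a2 are highest at 72 h; Cox6a2 rises from 4.41 to 7.69 CPM in NI to 47.9 to 56.3 CPM at 2 weeks after FT.

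The fall from 72 h was tested directly between times. After HS, 40 genes of the group were DE and lower at 1 week than at 72 h (45.5%, with 4.07% of all genes) and 14 at 2 weeks (15.9%, with 3.37%). After FT, 1 was DE and lower at 1 week (1.14%, with 2.62% of all genes) and 1 at 2 weeks (1.14%, with 2.68%). By the adjusted p alone 54 and 56 were lower after HS (6.76% and 6.83% of all genes) and 15 and 6 after FT (3.91% and 3.77%). These counts moved with the scaling and with the samples left out. At the same total 9 and 0 genes were DE and lower after HS (1.96% and 2.33% of all genes), with 44 and 38 by the adjusted p alone. With quantile scaling 10 and 2 were DE and lower. For the counts by the adjusted p alone at the same total and for those with quantile scaling, no share of all genes is given. They are therefore not read as a result about the group. Leaving out 1 sample at a time, the fall at 1 week held 17 genes (without HS 1 week replicate 1, so that the group has 1 sample and the spread comes from the other groups) to 52 (without HS 72 h replicate 3), and the fall at 2 weeks 6 (without HS 72 h replicate 1 or 2) to 29 (without HS 72 h replicate 3). Without HS 2 weeks replicate 1 the fall at 2 weeks held 7. Whether the fall differed between the injuries was not tested. Among the DE genes, the largest falls at 1 week after HS were those of Ndufa4 (-1.49, adjusted p = 0.000158, limma), Ndufa12, an accessory subunit of complex I (-1.38), and Cox7a2 (-1.38, adjusted p = 0.000906). The single gene DE and lower than at 72 h after FT was Cox7a1, by 1.19 at 1 week (adjusted p = 0.0234) and by 1.40 at 2 weeks (adjusted p = 0.00651) on the log2 scale. Its level was low, with 0.464 CPM in FT 1 week replicate 2, where a single read was worth 0.0774 CPM. The call at 1 week was lost when 1 CPM was added, when just those 2 groups were fitted and without FT 1 week replicate 2.

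The single gene DE and higher than at 72 h was Cox6a2, in all 4 comparisons between times (1.14% of the group, where 1.95%, 1.37%, 0.827% and 1.13% of all genes were DE and higher). Its log2 fold change was 1.14 at 1 week and 1.08 at 2 weeks after HS (adjusted p = 0.0118 and 0.00700, limma), and 1.11 and 1.76 after FT (adjusted p = 0.00894 and 5.83e-05). The call at 1 week after HS was lost without HS 72 h replicate 1 or either HS 1 week sample (1.00 to 1.28, adjusted p = 0.0533 to 0.144), where leaving out an HS 1 week sample leaves a group of 1 whose spread is taken from the other groups. At 2 weeks after HS the value fell under 2-fold without replicate 1 or 3 of either group (0.92 to 0.99), and at 1 week after FT without FT 1 week replicate 3 (0.998). The highest group mean after HS was at 72 h for 85 of the 88 genes, and after FT for 79. For 79 genes after HS and 54 after FT, the mean was lowest at 1 week, higher at 2 weeks and highest at 72 h, among the injured groups. No share of all genes is given for these counts of highest means and of this order. They are therefore not read as a result about the group. The exceptions after HS were Cox6a2 and Ndufaf6, highest at 1 week, and Ndufaf4, highest in NI. After FT they were Ndufa6, Ndufaf6 and Atp5sl, highest at 1 week, Cox6a2, Ndufs7, Cox8a, Ndufaf1 and Ndufaf7, highest at 2 weeks, and Ndufaf4, again highest in NI.

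FT and HS were compared directly at each time. No gene of the group was DE (limma; 0% of all genes), nor was any DE by either edgeR test (quasi-likelihood or likelihood ratio) run on the recovered reads. At an unadjusted p under 0.05 there were 0 genes of the group at 72 h, 14 at 1 week (15.9%, with 4.31% of all genes) and 5 at 2 weeks (5.68%, with 2.61%), and all 19 were higher after FT (1.72% and 1.36% of all genes in that direction). The median difference, FT minus HS, was -0.09, 0.34 and 0.21 in order of time, and 17, 72 and 75 of the 88 genes were higher after FT. The typical 95% interval of a gene reached 0.44, 0.50 and 0.44 to either side, and for 76, 67 and 76 genes it lay within a 2-fold difference in either direction. The smallest p of the group at 1 week belonged to Ndufa3, with 82.4 and 95.0 CPM after HS and 177, 98.6 and 142 CPM after FT (0.61, 95% interval 0.13 to 1.10, adjusted p = 0.999). At 2 weeks it was that of Cox6a2 (0.67, 95% interval 0.15 to 1.18), whose samples after FT all lay above those after HS, and at 72 h that of Uqcrc1 (-0.95, 95% interval -1.92 to 0.02), through the low replicate 2 after FT.

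A set of 10 genes of the group varied widely between replicates. They were Ndufa10, Ndufb2 and Ndufab1 of complex I, Uqcrc1 of complex III, Cox5a, Cox5b, Cox6a1 and Cox8a of complex IV, and Atp5b and Atp5d of complex V, each with an SD within groups above 0.5 on the log2 scale and a mean of at least 5 CPM. They were 10 of 83 genes at that level (12.05%), where 734 of 9871 genes of the table were as wide (7.44%). In each group the same library was lowest for 8 to 10 of them: replicate 3 of NI and of both later FT groups, and replicate 2 of FT at 72 h and of the 3 HS groups. Atp5d, the delta subunit of the ATP synthase, had 16.2 to 27.6 CPM in these 7 libraries and 43.7 to 118 CPM in the other 13. Cox5b, a zinc-binding subunit of complex IV, had 14.8 to 32.4 CPM and 35.1 to 129 CPM, and so did not overlap either, as was also true of Ndufb2, Ndufa10 and Cox8a. The pattern was not particular to respiratory genes, since 184 of the 724 other wide genes of the table were also lowest in all 7.

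Cox6a1 shows the effect of this spread on the tests. It had 120.1, 95.5 and 19.4 CPM in NI, 263, 152 and 226 CPM at 72 h after HS and 239, 28.6 and 238 CPM after FT. The samples after HS did not overlap with NI, but neither its 1.77 (adjusted p = 0.0540, limma) nor its 0.95 (adjusted p = 0.317) passed. Without the 7 libraries, which were picked on these very genes so that the smaller spread follows from the choice, its log2 fold changes were 1.18 and 1.15, and those of Atp5d 1.16 and 1.14 in place of 0.94 and 0.80. Over the whole group the medians at 72 h without the 7 libraries were 1.15 and 1.00, with 54 and 39 genes DE and higher. No share of all genes without the 7 libraries is given. The part of these libraries in the results was not tested beyond these values.

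**Figure D3:**
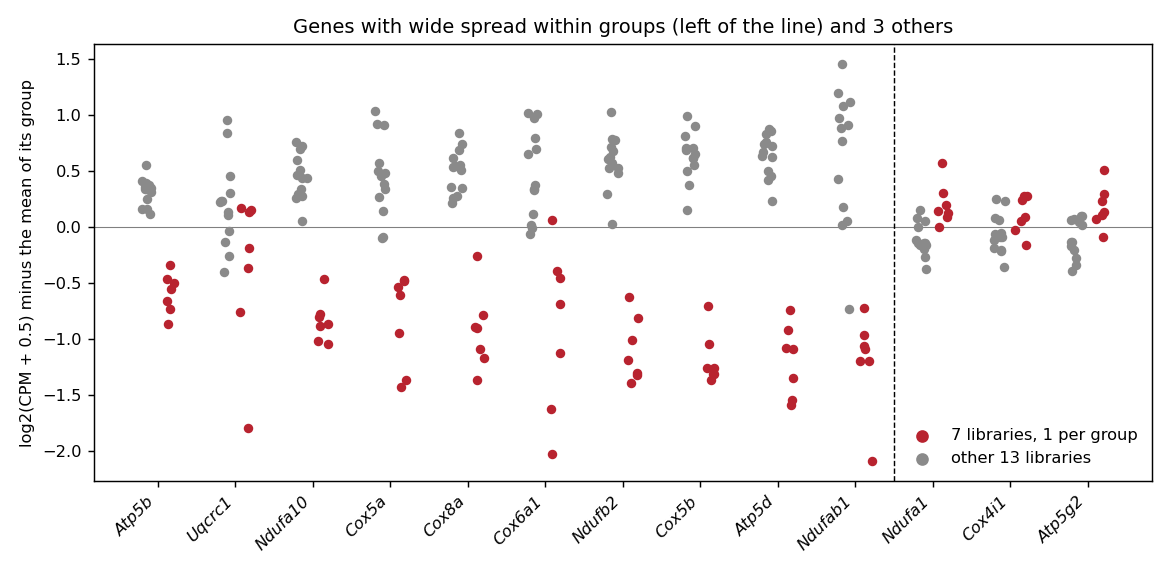
Deviation of each sample from its group mean (log2) for the 10 genes of widest spread and for Ndufa1, Cox4i1 and Atp5g2, with the 7 libraries that were lowest most often in red. For Atp5d these 7 lie at 16.2 to 27.6 CPM and the other 13 at 43.7 to 118 CPM. The 3 genes at the end are not low in the red libraries as a set. For Ndufa1 the red library is the highest of every group but FT at 2 weeks. For Atp5g2 it is the highest of every group but HS at 2 weeks, where it is the lowest (222 CPM). For Cox4i1 the red library is the highest of both 72 h groups and of both 1 week groups. It lies between the others in NI and in FT at 2 weeks, and is the lowest in HS at 2 weeks (568 CPM).

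Respiratory subunits are short genes, and short genes in general were higher at 72 h. The median exon length of the 88 genes was 1064 bases (range 371 to 4912), against 3343.5 bases over the 14756 genes of the table with a length in GENCODE vM21, and 41 of the 88 had under 1 kb. Among the other genes, the median log2 fold change at 72 h after HS was 0.58 under 1 kb, 0.23 from 1 to 2 kb, -0.07 from 2 to 4 kb and -0.23 above. In the same bins the respiratory genes had 1.22, 1.12, 0.84 and 1.11 (41, 34, 10 and 3 genes), so that they stood 0.63, 0.89, 0.91 and 1.34 above others of like length. After FT the gaps were 0.63, 0.77, 0.92 and 1.41. At 1 week after HS the gap under 1 kb was 0.00. Within the bin under 1 kb the gap to the other genes was thus smaller than the gap of 1.29 to all genes. The part of length in the result was not tested.

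**Figure D4:**
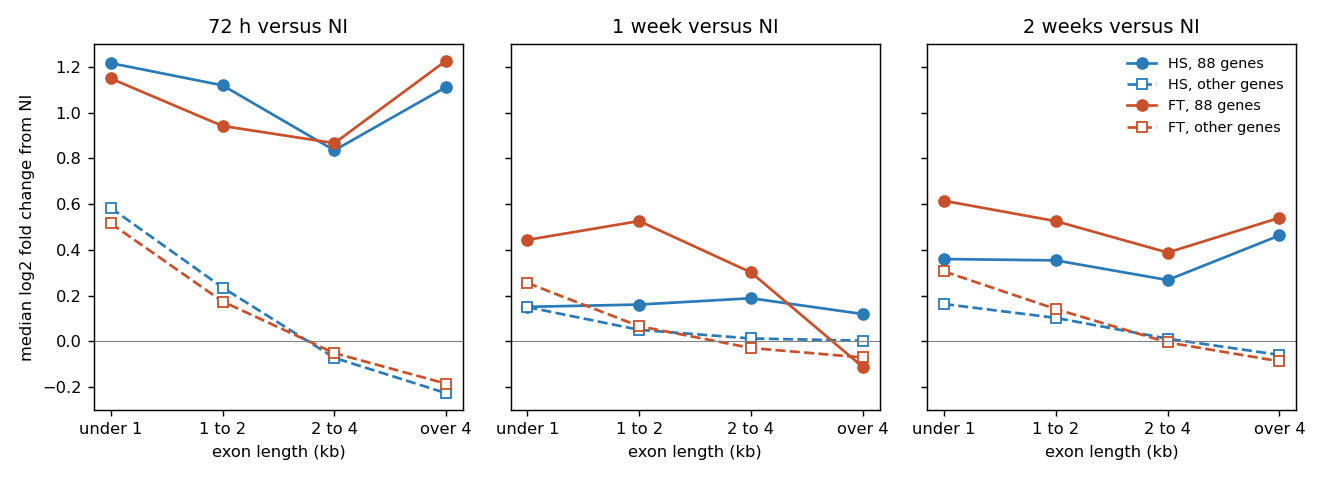
Median log2 fold change from NI (vertical axis) by exon length bin (horizontal axis, kb) of the 88 genes and of the other genes, at the 3 times after HS and after FT. At 72 h after HS the other genes fall from 0.58 under 1 kb to -0.23 above 4 kb, with the 88 genes above them in each bin.

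Related gene lists, written from general knowledge, are given for comparison at 72 h after HS and FT, as counts of DE and higher genes beside 9.08% and 8.14% of all genes. Of 8 carriers, porins and their relatives that move ATP, phosphate and metabolites, 6 and 5 rose, among them Ucp2, an uncoupling protein homologue (1.53 and 1.59), and Atpif1, the inhibitor of the ATP synthase (1.38 and 1.19). Of 16 genes of the citric acid cycle and pyruvate dehydrogenase, 7 and 2 rose. Of 7 electron carriers and their oxidoreductases, Etfa (1.92 and 1.18) and Etfb (1.29 and 1.20), which form the electron transfer flavoprotein, rose past 2-fold. Cycs, cytochrome c itself, rose by 0.94 after HS (adjusted p = 0.00654, limma). Of 29 further assembly factors, 2 and 1 rose, with Coa5, a factor for complex IV, at 1.80 and 1.67.

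Of 12 regulators of mitochondrial biogenesis, among them Nrf1, Gabpa, Yy1 and Tfam, none was DE and higher at 72 h by limma. For so short a list this is near the 9.08% and 8.14% of all genes after HS and FT. At an unadjusted p under 0.05 there was 1 higher and 2 lower after each injury. Of all genes, 20.7% were higher and 18.7% lower at that limit after HS, and 19.4% and 17.3% after FT. Ppargc1a, a coactivator of that programme, was DE and lower after HS (-1.29, adjusted p = 0.0146). Of 76 mitochondrial ribosomal proteins, 23 and 12 rose, and of 82 cytosolic ribosomal proteins 68 and 60. At 2 weeks after FT the cytosolic ribosomal proteins still held 57 DE and higher genes, where the respiratory genes held 6 of 88. At that time 3.53% of all genes were DE and higher. Of 21 glycolytic genes, 9 rose after each injury at 72 h and 7 at 2 weeks after FT, beside the same shares of all genes.

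Markers of cell division and of monocytes moved as well. The shares of all genes DE and higher at 72 h were 9.08% after HS and 8.14% after FT. All 11 cell cycle genes rose at 72 h after either injury, and their sum was 141 to 161 CPM in NI, 1028 to 1842 CPM at 72 h after HS, 1028 to 1244 CPM at 72 h after FT and 160.1 to 283 CPM later, so that it was high at the time when the respiratory genes were high. Of 8 markers of monocytes and infiltrating macrophages, 6 rose at 72 h after HS and 8 after FT. Their sum was 736 to 849 CPM in NI, 2425 to 4211 CPM at 72 h and 2697 to 7483 CPM later, no marker was at 0 in every sample of a group, and so it stayed high when the respiratory genes had fallen. The sum of 8 homeostatic microglia markers was 19966 to 28703 CPM in NI and 15206 to 32339 CPM after injury, and all 8 were present. As a share of the reads on the table it was 2.56 to 3.46% in NI, and 1.87 to 2.12% and 1.81 to 2.33% at 72 h after HS and FT, with no overlap. The part of dividing cells, of monocytes and of this lower share in the respiratory rise was not tested.

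Some values are less certain by gene structure. Exon bases are shared with another gene model by 25 of the 88 genes, and with a gene of the table by 14, as for Ndufb2 with Braf (146 bases), Atp5f1 with Wdr77 (337 bases) and Atp5j with Gabpa (182 bases). Many respiratory subunits also have near-identical processed pseudogenes, and how reads that map to several places were treated in counting is not given in the sources used here.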

How the data were processed

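Polyadenylated RNA of sorted microglia was amplified (SMARTer Ultra Low, Nextera libraries, which do not mark strand). Per the submitters' processing notes, the authors used TopHat2 2.0.9, HTSeq 0.5.4p3 and edgeR 3.3.6 with mm10 (GRCm38). Genes with at least 10 reads in 2 replicates were kept. The signal the authors deposited is a normalised count, written here as CPM, in columns of unequal total. All 336200 values were whole reads within 0.001 of the value of 1 read. Columns were grouped by their labels. Values were tested as log2(value + 0.5 CPM), which understates the change of low genes, with limma 3.58.1 (R 4.3.3, intensity trend, 1 mean per group, 20 samples), and p-values were adjusted by Benjamini-Hochberg over 16810 genes. The fit was tested on simulated data. The genes and lists were chosen with earlier results of these data known. Genes were named if they were core subunits or isoform partners, had the largest or smallest change of their complex at 72 h, were among the 3 largest DE changes at 1 or 2 weeks, or had the smallest p between FT and HS. Not every gene this rule picks is reported here. Others, such as Uqcrh, Atp5e, Ndufa12, Ndufaf4, Atp5sl and the genes of wide spread, were named after their values were seen. Alternatives were other added values, filters, scalings, 2-group fits, edgeR 4.0.16 on recovered reads, a replicate block and leaving out each sample. Exon lengths came from GENCODE vM21.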

Additional observations from a re-analysis of the deposited data

Results flagged for a closer look

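As deposited, a larger share of the group than of all genes differed between 72 h and later times after HS in direct tests. With both directions counted, 41 of the 88 genes were DE between 1 week and 72 h after HS. Between 2 weeks and 72 h there were 15. Those lower made up 45.5% and 15.9% of the group, with 4.07% and 3.37% of all genes. After FT there were 2 and 2. The 1 gene lower at each time (1.14%) was below the 2.62% and 2.68% of all genes, and the 1 higher stood beside 0.827% and 1.13%. All but Cox6a2 were lower than at 72 h. Cox6a2, the muscle isoform of a complex IV subunit, was higher than at 72 h by 1.14 and 1.08 (log2) at 1 and 2 weeks after HS and by 1.11 and 1.76 after FT. The count of 41 fell to 10 without the 7 libraries in which the genes of wide spread were low, a choice made after seeing the data, and that of 15 to 7. Without these libraries HS 1 week holds a single sample and every other group 2, so that the spread of HS 1 week is taken from the other groups.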

How the results depend on the processing

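Of the counts of DE genes in the group over all alternatives, 191 stayed within 1.5 times the reported count and 40 moved. The 191 include the comparisons of FT with HS, where the count was 0 throughout, and HS 1 week against NI, where it was 1. They are thus no measure of how stable the other counts were. Shares of all genes are given above for part of these counts. Counts follow in the order HS 72 h, HS 2 weeks, FT 72 h, FT 1 week and FT 2 weeks against NI. With every column at the same total they were 8, 1, 2, 1 and 1, and with quantile scaling 21, 1, 16, 2 and 2. With no fold limit HS 2 weeks, FT 1 week and FT 2 weeks held 5, 19 and 26. Against 72 h, HS 1 week and HS 2 weeks held 10 and 1 genes at the same total, 11 and 3 with quantile scaling, and 10 and 7 without the 7 libraries, an alternative chosen after seeing the data. With no fold limit HS 2 weeks, FT 1 week and FT 2 weeks against 72 h held 57, 16 and 7. FT 1 week against 72 h held 1 when 1 CPM was added, 1 when just those 2 groups were fitted, 4 by each edgeR test and 6 without the 7 libraries, where FT 2 weeks held 1. The causes were not tested.

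Leaving out each sample in turn gave 50 to 63 at HS 72 h, 1 at HS 1 week, 2 at HS 2 weeks, 37 to 49 at FT 72 h, 3 to 8 at FT 1 week (8 without FT 1 week replicate 2) and 3 to 6 at FT 2 weeks (3 without FT 2 weeks replicate 2). Against 72 h it gave 17 to 53 at HS 1 week, 6 to 29 at HS 2 weeks, 1 to 6 at FT 1 week and 2 at FT 2 weeks. With either HS 1 week sample left out, the lone sample is assumed to vary like the other groups. At HS 2 weeks the count was 29 without HS 72 h replicate 3 and 7 when either HS 72 h replicate 2 or HS 2 weeks replicate 1 was left out.

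The median of the group at HS 1 week turned to -0.061 at the same total, and that of complex I to -0.17 at HS 1 week and -0.031 at HS 2 weeks. Ndufv1 turned to -0.039 and -0.15 at HS and FT 72 h under the same scaling. Ndufa4l2 turned to -0.16 at HS 72 h at the same total and to -0.39 without the 7 libraries. Leaving out each sample, it ranged from -0.15 (without NI replicate 3; -0.14 with HS 72 h replicate 2 left out) to 0.37 at HS 72 h, and from -0.22 (without FT 72 h replicate 1) to 1.07 at FT 72 h. Genes such as Ndufa4l2 and Cox4i2, of a few reads per sample, were limited by depth.

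With replicate number as a block the counts were 55, 1, 2, 44, 4 and 6 against NI and 39, 15, 3 and 2 against 72 h, in order of HS and FT at each time, and 0 between FT and HS. Deviations of samples with the same number correlated above 0.1 in 23 of 57 pairs (r from -0.58 to 0.57), and 9 of 20 samples correlated best with their own number. Replicates 2 of the HS groups and of FT at 72 h, all among the libraries low for the genes of wide spread, correlated with each other at 0.30 to 0.52. Replicates 2 of the other groups correlated with these at -0.51 to -0.02. Whether samples of the same number were handled together is not given by the labels and was not tested.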
